A study of Mus musculus with 13 samples.

Results

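Plxdc2, Gcnt1, Sla, Plau, Efhd2 and Etv6 are 6 genes chosen by their level: mean CPM (counts scaled to library size, with TMM factors) lay below saline in both treatment groups. They are 6 of 36287 genes in the deposited table and all 6 are among the 22065 genes with enough counts to be tested. The rule names only the means, but each gene also ranked high by unadjusted p in at least 1 contrast. Among genes lower in ACLP-NT than in saline, Plxdc2 stood at 1, Gcnt1 at 3, Etv6 at 4, Sla at 5, Plau at 6 and Efhd2 at 177. Among genes lower in Aducanumab, Efhd2 stood at 2, Etv6 at 10, Sla at 13, Plxdc2 at 70, Gcnt1 at 185 and Plau at 383. Both contrasts against saline are therefore description for these genes and carry no test.

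Hippocampal RNA, enriched for poly(A) tails, came from 5xFAD mice, a transgenic line that expresses mutant human amyloid precursor protein and presenilin in neurons and deposits amyloid plaques. All 3 groups carried 5xFAD. They were saline (n = 4, libraries 18, 19, 32 and 38), Aducanumab (n = 4, libraries 24, 50, 56 and 58), an antibody to aggregated amyloid beta, and ACLP-NT (n = 5, libraries 17, 27, 49, 53 and 55), known here by its code name and by a study title that speaks of a nanomedicine and of lysosomes in microglia. The sources used here give no dose, duration, age, sex or batch, and mice without 5xFAD were not analysed here. The numbers are the labels' own, and no number occurs in more than 1 group. The labels do not say in words that each library comes from a different mouse, and p-values measure only the spread between these samples.

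The 6 genes act at different places in a cell. Plau encodes urokinase, a secreted protease that turns plasminogen into plasmin, and Plxdc2 encodes a plexin-domain membrane protein that binds the pigment epithelium-derived factor PEDF. Gcnt1 encodes a Golgi enzyme that branches mucin-type O-glycans, Sla an adaptor that dampens signalling from immune receptors, Efhd2 a calcium-binding protein of the actin cytoskeleton found in neurons and immune cells, and Etv6 a transcriptional repressor of the ETS family. In the brain, Csf1r, the receptor for colony stimulating factor that microglia need to survive, is a marker of microglia, and PU.1 (Spi1), another ETS factor, sets their identity. In RNA from whole tissue, fewer cells of a type and less RNA per cell cannot be told apart.

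Promoters were available in RefSeq (GRCm38.p6) for 3 of the 6 genes, with 5 start sites in all. They are shown because ETS factors bind motifs such as AGGAAGT and 1 of the 6 genes is itself an ETS factor. Other forms of the ETS motif were not searched, apart from a longer PU.1 form that contains AGGAAGT. A window without a match may therefore hold another form. Each window ran from 250 bases before to 50 bases after a start and was searched on both strands. The 250 bases before the start are printed, 5′ to 3′ on the gene's strand, with any ETS match in capitals. A middle Gcnt1 start, with the printed bases at chr19:17356668-17356917 on the minus strand, held AGGAAGT from position -148, preceded by a g that makes it the longer PU.1 form GAGGAAGT. The most downstream Gcnt1 start, at chr19:17339506-17339755 on the minus strand, held the motif on the opposite strand (ACTTCCT) from position -244. The Efhd2 window, at chr4:141874921-141875170 on the minus strand, held no match and was rich in G and C (70.3%, against a median of 52.7% over 32851 promoters). The Etv6 window, at chr6:134035450-134035699 on the plus strand, held no match either.
Gcnt1, middle start: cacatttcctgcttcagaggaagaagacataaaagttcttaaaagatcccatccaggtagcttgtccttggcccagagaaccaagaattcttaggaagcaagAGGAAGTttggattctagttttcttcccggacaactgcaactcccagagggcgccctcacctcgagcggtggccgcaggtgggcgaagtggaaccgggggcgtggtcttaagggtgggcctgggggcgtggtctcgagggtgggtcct
Gcnt1, downstream start: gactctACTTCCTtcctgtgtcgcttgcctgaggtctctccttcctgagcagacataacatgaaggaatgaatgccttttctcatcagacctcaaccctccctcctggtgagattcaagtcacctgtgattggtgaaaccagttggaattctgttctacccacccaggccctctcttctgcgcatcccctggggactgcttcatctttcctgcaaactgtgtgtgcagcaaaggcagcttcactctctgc
Efhd2: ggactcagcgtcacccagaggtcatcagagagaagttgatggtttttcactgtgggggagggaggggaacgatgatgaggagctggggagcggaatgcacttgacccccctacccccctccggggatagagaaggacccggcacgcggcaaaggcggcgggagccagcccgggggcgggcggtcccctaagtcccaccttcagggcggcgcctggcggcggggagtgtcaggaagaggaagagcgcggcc
Etv6: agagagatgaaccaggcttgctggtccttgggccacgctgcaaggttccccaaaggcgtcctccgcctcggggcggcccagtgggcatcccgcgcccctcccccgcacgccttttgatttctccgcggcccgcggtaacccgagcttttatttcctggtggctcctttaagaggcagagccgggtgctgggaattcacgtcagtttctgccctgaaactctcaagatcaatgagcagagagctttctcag
The most upstream Gcnt1 start, not printed, held no ETS match and 2 matches to TATAAA. Of all 32851 promoter windows of the same length, 9.35% held AGGAAGT, 3.20% the PU.1 form contained in it, 7.81% the AP-1 motif TGANTCA and 13.6% TATAAA. None of the 5 windows held TGANTCA. The motifs were chosen with the sequences in view, and a match is a run of letters, not a measured site.

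In the deposited table the genes are protein-coding, with positions on a genome build that the sources used here do not name. Plxdc2 spans chromosome 2 from 16361115 to 16760650, Gcnt1 chromosome 19 from 17303505 to 17350208 and Sla chromosome 15 from 66652668 to 66703495. Plau spans chromosome 14 from 20886728 to 20893453, Efhd2 chromosome 4 from 141585453 to 141602231 and Etv6 chromosome 6 from 134012663 to 134247121. Sla lies inside Tg, which is on the opposite strand. The sources used here do not say whether the counting used strand, but Tg had a mean of 5.0 counts per library against 494 for Sla.

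Libraries held 53642019 to 69734713 counts. The smallest count of any of the 6 genes in any library was 222, for Plau in ACLP-NT 27. Markers of neurons summed to 5230 to 6600 CPM and those of microglia to 1170 to 2020 CPM over the 13 libraries. Choroid plexus markers summed to 55.4 to 5290 CPM, with both low and high libraries in every group. Of them, 12 of 12 were higher than saline in Aducanumab and in ACLP-NT (median log2 fold changes 0.82 and 0.78). Of all genes tested, 48.7% and 50.6% were lower. The smallest unadjusted p of the 12 in edgeR was 0.324 in Aducanumab and 0.34 in ACLP-NT. Within groups the 6 genes had r from -0.27 to 0.22 with these markers.

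Compared per gene length, Efhd2 was by far the most abundant of the 6 transcripts. Its mean FPKM (fragments scaled to gene length and library size) over the 13 libraries was 59.8, and Plxdc2 followed at 7.37. Plau at 2.39 and Etv6 at 2.32 lay side by side, with ranges over libraries that overlapped, and Gcnt1 at 1.45 and Sla at 0.805 came last. For scale, Csf1r had a mean of 34.4 FPKM. Within each gene, levels are given below as CPM in the library order stated above.

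The secreted protease and the membrane protein come first. Plau was at 7.01, 6.72, 8.63 and 9.15 CPM in saline, at 7.05, 4.61, 5.01 and 6.99 in Aducanumab and at 5.04, 3.64, 5.58, 4.46 and 5.33 in ACLP-NT. Every ACLP-NT library lay below every saline library, whereas Aducanumab 24 and 58 lay within the saline range. Plxdc2 was at 64.6, 58.9, 65.4 and 66.6 CPM in saline, at 51.2, 52.2, 50.3 and 59.5 in Aducanumab and at 46.9, 44.1, 58.0, 48.3 and 51.3 in ACLP-NT. Here saline 19 was the lowest saline library, and Aducanumab 58 exceeded it by a little, so those groups overlapped while ACLP-NT stayed below saline.

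The glycan-branching enzyme Gcnt1 was at 12.1, 11.7, 11.7 and 9.76 CPM in saline, at 9.09, 8.21, 7.19 and 10.5 in Aducanumab and at 9.08, 6.27, 7.67, 6.43 and 7.85 in ACLP-NT. Saline 38 was lower than the other saline libraries, and Aducanumab 58 exceeded it. No ACLP-NT library reached the saline range.

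Of the cytoplasmic proteins, the adaptor Sla was at 11.9, 11.5, 8.64 and 9.73 CPM in saline, at 5.98, 8.22, 5.81 and 7.55 in Aducanumab and at 6.01, 7.93, 7.67, 6.24 and 6.85 in ACLP-NT. Its lowest saline library, 32, lay above all 9 treated libraries. Efhd2 was at 180, 188, 152 and 162 CPM in saline, at 138, 148, 138 and 132 in Aducanumab and at 149, 163, 152, 144 and 150 in ACLP-NT. Saline exceeded Aducanumab in every library but overlapped ACLP-NT, since saline 32 was no higher than ACLP-NT 27 and 49 to 3 digits. In both genes saline 18 and 19 were the high saline libraries, whereas in Plau the high ones were saline 32 and 38.

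The repressor Etv6 had the narrowest saline values, at 17.6, 17.2, 16.8 and 17.2 CPM, against 13.6, 14.7, 12.6 and 14.9 in Aducanumab and 14.4, 13.2, 14.8, 14.3 and 13.4 in ACLP-NT. All 9 treated libraries lay below all 4 saline libraries. Csf1r did the same, with saline libraries at 228 to 259 CPM, Aducanumab ones at 189 to 220 and ACLP-NT ones at 165 to 221. Full separation of saline from all treated libraries thus held for 2 of the 6 genes, Sla and Etv6, and for 0.231% of all genes tested (51 genes, lower in treatment). A mean below saline in both groups, which the choice required, held for 35% of the genes tested (7723). Nothing is read from either share, since both come from the contrasts used for the choice.

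**Figure D1:**
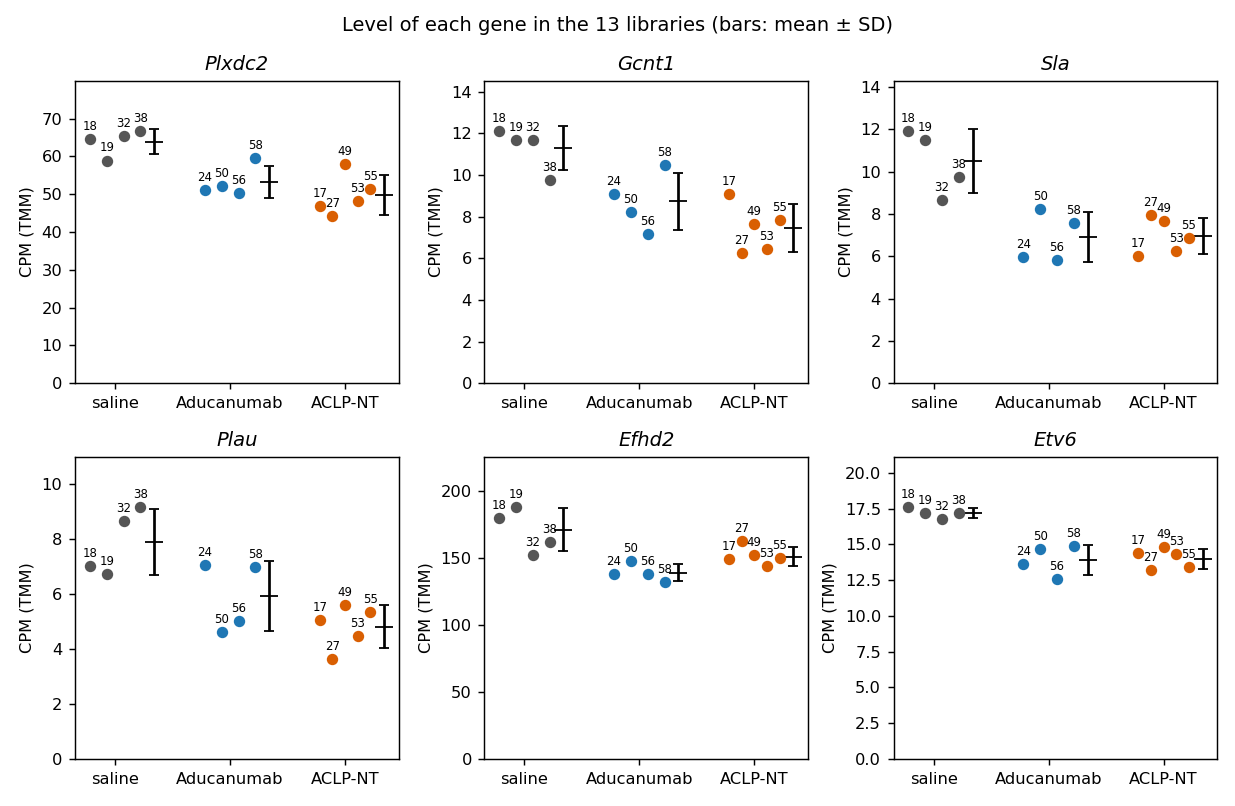
CPM (vertical axis, from 0) of each of the 6 genes in the 13 libraries, numbered as in the labels, with the mean ± SD of each group beside its points. Sla and Etv6 show all saline points above all treated points, while Plau, Plxdc2 and Gcnt1 have an Aducanumab point at or above the lowest saline one.

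Group means give the size of the differences. Plau averaged 7.88 ± 1.19 CPM in saline, 5.92 ± 1.28 in Aducanumab and 4.81 ± 0.775 in ACLP-NT (SD, n = 4, 4 and 5, here and below). Its fitted level was 0.751 times saline in Aducanumab and 0.611 times saline in ACLP-NT, the lowest ratio of the 6 genes. Gcnt1 averaged 11.3 ± 1.06, 8.74 ± 1.38 and 7.46 ± 1.15 CPM, and Plxdc2 63.9 ± 3.40, 53.3 ± 4.22 and 49.7 ± 5.30 CPM. These 3 genes had their lowest mean in ACLP-NT.

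Sla averaged 10.5 ± 1.53 CPM in saline, 6.89 ± 1.18 in Aducanumab and 6.94 ± 0.848 in ACLP-NT, close to 0.66 times saline in both. Etv6 averaged 17.2 ± 0.355, 13.9 ± 1.07 and 14 ± 0.696 CPM, again at nearly the same level under both treatments. Efhd2 had its lowest mean in Aducanumab, with 171 ± 16.1, 139 ± 6.40 and 151 ± 7.12 CPM. Its ratio in ACLP-NT, 0.888, was the closest to 1 of the 12 ratios against saline.

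On the log2 scale, Aducanumab against saline was -0.60 (SE 0.145) for Sla, -0.41 (SE 0.174) for Plau and -0.37 (SE 0.138) for Gcnt1. It was -0.30 (SE 0.0720) for Etv6, -0.30 (SE 0.0625) for Efhd2 and -0.26 (SE 0.0795) for Plxdc2. In ACLP-NT against saline the order was Plau at -0.71 (SE 0.165), Gcnt1 at -0.60 (SE 0.130), Sla at -0.59 (SE 0.136), Plxdc2 at -0.36 (SE 0.0751), Etv6 at -0.30 (SE 0.0681) and Efhd2 at -0.17 (SE 0.0591). Csf1r had -0.23 (SE 0.0940) and -0.29 (SE 0.0889). The same saline libraries stand in both contrasts, so the 2 sets of values are not independent of each other.

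Over all genes, the edgeR quasi-likelihood test with Benjamini-Hochberg adjustment called 0 genes (0%) in Aducanumab against saline and 0 genes (0%) in ACLP-NT against saline. At an unadjusted p under 0.05 there were 1033 and 1298 genes, and DESeq2 called 18 and 9.

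The comparison of ACLP-NT with Aducanumab was not part of the choice and could be tested, although a gene picked for a low p in 1 treatment may be pushed toward that treatment here. No difference passed. edgeR gave an adjusted p of 1 for each of the 6 genes and called 0 of 22065 (0%), with 716 at an unadjusted p under 0.05 and 3 called by DESeq2. Efhd2 came nearest, with log2 0.13 (95% interval -0.001 to 0.25, unadjusted p = 0.0516 in edgeR), higher in ACLP-NT. Plau had -0.30 (interval -0.65 to 0.06) and Gcnt1 -0.23 (interval -0.51 to 0.05), both lower in ACLP-NT, and Plxdc2 had -0.10 (interval -0.26 to 0.06). Sla and Etv6 had the values nearest 0, at 0.01 (interval -0.28 to 0.31) and 0.009 (interval -0.14 to 0.16). For each of the 6 genes the interval allows a difference as large as a good part of those against saline. The intervals therefore do not show that both treatments gave the same level.

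**Figure D2:**
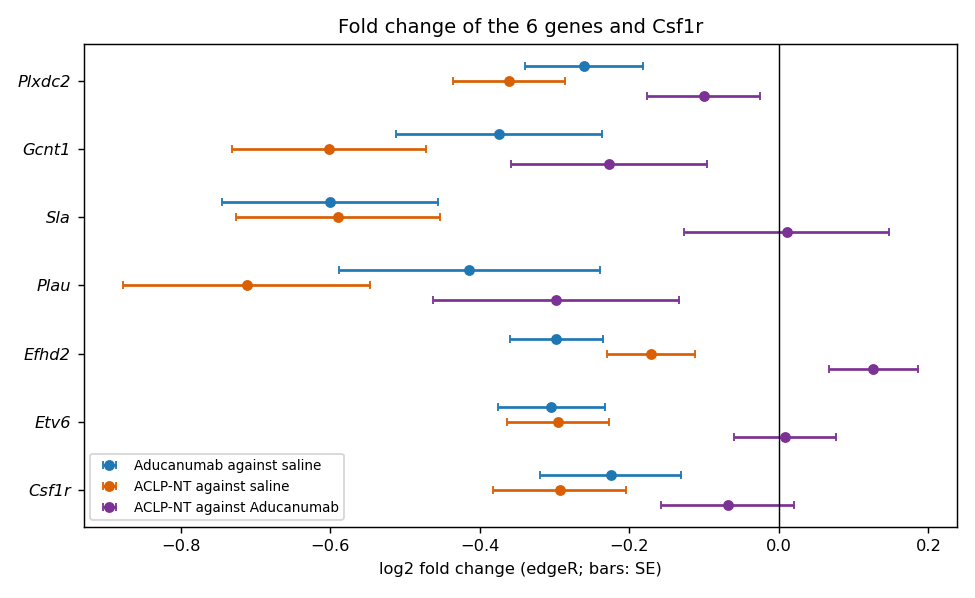
log2 fold change (horizontal axis) of the 6 genes and Csf1r in the 3 contrasts, with bars for the SE. Against saline all points lie left of 0, from -0.71 for Plau to -0.17 for Efhd2 in ACLP-NT, while ACLP-NT against Aducanumab lies between -0.30 and 0.13.

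A second question was whether the genes moved with microglial genes among libraries of the same treatment. For this each group's mean, which the choice had used, was subtracted, leaving the spread between libraries of 1 group. Plau followed Csf1r closely: Pearson r = 0.855 over 13 libraries (exact permutation p = 0.00042, 0.00252 adjusted over the 6 genes), Spearman rho = 0.692 (exact permutation p = 0.00242, adjusted 0.0145). Plau was above its group mean in the same 7 libraries as Csf1r (saline 32 and 38, Aducanumab 24 and 58, ACLP-NT 17, 49 and 55) and below it in the other 6. Without ACLP-NT 27 and 53, the farthest in Csf1r, r was 0.94.

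Gcnt1 and Plxdc2 had positive values that did not pass. Gcnt1 had r = 0.677 (exact permutation p = 0.0367, adjusted 0.102) and rho = 0.544 (p = 0.0934, adjusted 0.173), and the relation rested on ACLP-NT 27 and 53, without which r was 0.35. Plxdc2 had r = 0.63 (exact permutation p = 0.0678, adjusted 0.102) and rho = 0.538 (p = 0.115, adjusted 0.173), with r = 0.46 without the same libraries. With ACLP-NT 17 alone left out, its r was 0.78 and its adjusted p 0.0497.

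Sla and Efhd2 had negative values that did not pass. Efhd2 had r = -0.485 (exact permutation p = 0.0531, adjusted 0.102) and rho = -0.385 (p = 0.207, adjusted 0.249). Its r was -0.806 without ACLP-NT 27 and 53, -0.728 without ACLP-NT 53 alone (adjusted p 0.00673) and -0.334 without ACLP-NT 27 alone (adjusted p 0.314). Sla had r = -0.325 (exact permutation p = 0.271, adjusted 0.326) and rho = -0.478 (p = 0.0874, adjusted 0.173), with r = -0.50 without both, -0.514 without ACLP-NT 53 alone and -0.17 without ACLP-NT 27 alone (adjusted p 0.72). Etv6 showed little relation, with r = 0.229 (exact permutation p = 0.476, adjusted 0.476) and rho = 0.143 (p = 0.648, adjusted 0.648), and r = 0.0477 without both.

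A slope fitted across all genes asked the same of a score over 21 microglial identity genes, in edgeR with the group as a term. A slope of 1 means that a gene changes as much, in log2, as the score. Adjusted over all genes, 85 genes (0.385%) passed, all with positive slopes, and 15 of them are genes of the score itself. Csf1r, at 0.81 (edgeR adjusted p = 0.000213), is also part of the score, so its positive slope is partly built in. Without ACLP-NT 27, 45 genes passed. None of the 6 genes passed. Plau had the steepest slope, 1.29 (SE 0.259, 95% interval 0.73 to 1.85, edgeR adjusted p = 0.0632). It passed in DESeq2 (adjusted p = 0.00107), in limma on log2(FPKM + 1) (0.0451) and log2(FPKM + 0.1) (0.0285), and with a mean FPKM of at least 1 required (0.0284). It also passed without ACLP-NT 53 (0.0394) and with a score over plaque-associated microglial genes (0.0419). It did not with Csf1r alone as the score (0.171), and with other single libraries left out the adjusted p reached 0.334 (without ACLP-NT 27).

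Gcnt1 had a slope of 0.75 (interval 0.14 to 1.35, edgeR adjusted p = 0.628) and Plxdc2 of 0.47 (interval 0.14 to 0.79, edgeR adjusted p = 0.458). Etv6 at 0.14, Efhd2 at -0.27 and Sla at -0.33 had intervals that included 0. Before adjustment, Plau, Gcnt1 and Plxdc2 had positive slopes at p under 0.05 (3 of 6), as had 3.81% of all genes. The intervals of Plau (0.73 to 1.85) and of Efhd2 (-0.57 to 0.02) did not overlap, although the difference between the slopes was not tested.

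The fold changes of these lists leaned to 1 side, although 0 of their genes passed in either contrast (edgeR). Of the 21 microglial identity genes, 20 were lower than saline in Aducanumab (median log2 fold change -0.26) and 20 in ACLP-NT (median -0.33), 8 and 15 of them at an unadjusted p under 0.05. Over all genes tested, 48.7% and 50.6% were lower, with medians of 0.004 and -0.001. The list's sum over saline libraries was 1690 to 2020 CPM, over Aducanumab ones 1380 to 1730 and over ACLP-NT ones 1170 to 1710, and none of its genes was at 0 in all libraries. Of 27 plaque-associated genes, 22 and 26 were lower. The microglial identity score ran from 0.0936 to 0.316 in saline, from -0.197 to 0.096 in Aducanumab and from -0.418 to 0.108 in ACLP-NT. Treated and saline libraries thus hardly met in this score, and values at equal score rest on the slope within groups. At equal microglial score, Plau in ACLP-NT was -0.31 (SE 0.131) against saline, in place of -0.71. In Aducanumab it was -0.09 (SE 0.124), in place of -0.41. Gcnt1 went from -0.60 to -0.38 (SE 0.138) in ACLP-NT and from -0.37 to -0.19 (SE 0.134) in Aducanumab. Plxdc2 went from -0.36 to -0.22 (SE 0.0761) and from -0.26 to -0.14 (SE 0.0739). Efhd2 and Sla had values somewhat farther below 0 at equal score, on slopes whose intervals included 0. Efhd2 went from -0.17 to -0.25 (SE 0.0678) in ACLP-NT and from -0.30 to -0.37 (SE 0.0665) in Aducanumab. Sla went from -0.59 to -0.69 (SE 0.173) and from -0.60 to -0.68 (SE 0.169), moves smaller than these SE. Etv6 went from -0.30 to -0.25 (SE 0.0877) and from -0.30 to -0.27 (SE 0.0852). The part of microglial RNA in these differences was not tested.

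Sla and Efhd2 moved with another list. The comparison was added after the values by library had been seen, so its p-values describe a pattern noticed in these data. The score was taken over 10 markers of neocortex, which borders the hippocampus, among them Cplx3, Cux2 and Lamp5. All 10 were detected here, and some are also known from hippocampal neurons. Over 78 relations (13 marker lists by 6 genes), Sla had r = 0.92 with it within groups (exact permutation p = 0.000203, adjusted 0.0107) and rho = 0.951 (adjusted 0.0135), and r = 0.883 without saline 32 and Aducanumab 50. Efhd2 had r = 0.855 (exact permutation p = 0.00143, adjusted 0.0279) and rho = 0.791 (adjusted 0.103), and r = 0.705 without the same libraries. Both were low in saline 32 and high in saline 18 and 19, Aducanumab 50 and ACLP-NT 27, as was the score. With the score of general neuron markers Efhd2 had r = 0.668 (exact permutation, adjusted p = 0.197) and rho = 0.72 (adjusted 0.144). Its r there was 0.655 without saline 38 and Aducanumab 58. Sla had r = 0.285 with the neuron score and 0.642 without the same libraries. Whether either relation is particular to neocortex was not tested.

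The other relations of these 78 to pass by r were those of Plau with the microglial identity score (r = 0.904, exact permutation p = 0.000448, adjusted 0.0117, rho 0.725 with adjusted 0.103) and with the plaque-associated score (r = 0.909, p = 0.000275, adjusted 0.0107, rho 0.791 with adjusted 0.0592). Without the 2 libraries farthest in each score they were 0.96 and 0.848. Next in size came Plxdc2 with plaque-associated microglia at 0.773 and Sla with oligodendrocyte precursors at 0.757, neither of which passed (adjusted p = 0.127 and 0.174, exact permutation). Plau with astrocytes followed at 0.724 (rho 0.764, exact permutation adjusted p = 0.127 for r), and at 0.78 without Aducanumab 56 and 58. Plxdc2 had 0.702 with microglial identity, 0.675 with oligodendrocytes and 0.614 with astrocytes, none of which passed. High values of these genes were thus not limited to the microglial lists.

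**Figure D3:**
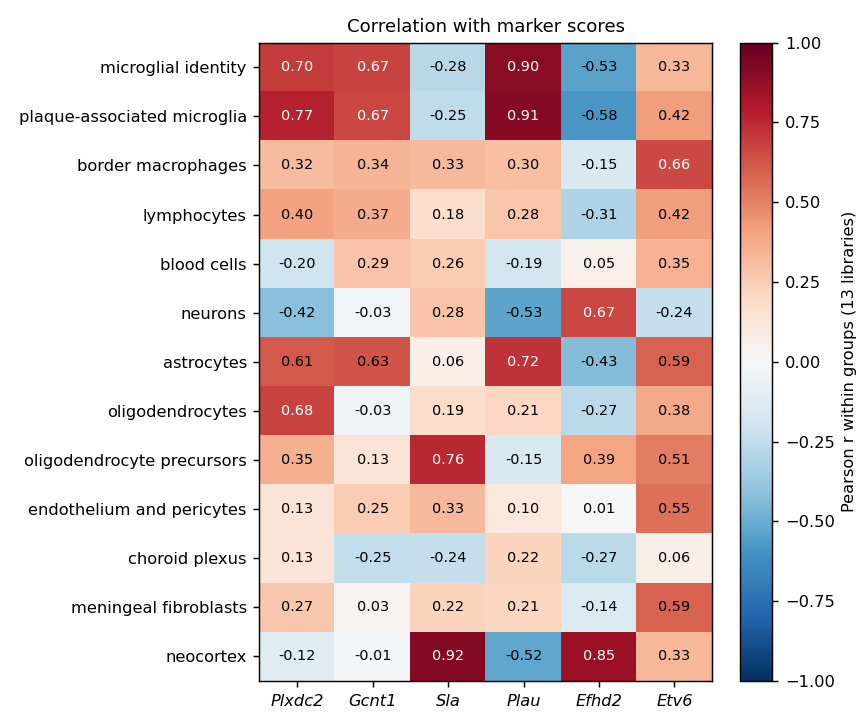
Pearson r within groups over 13 libraries (colour and printed value) between each of the 6 genes (columns) and the score of each of 13 marker lists (lines). Plau is highest with both microglial lists (0.90 and 0.91), Sla and Efhd2 with neocortex (0.92 and 0.85), and Etv6 with border macrophages (0.66, which did not pass and is 0.105 without Aducanumab 56 and 58).

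In the fit over all genes, 41 genes (0.186%) passed for a slope on the neocortex score, 35 of them positive, and 3 passed without saline 32. None of the 6 genes did in edgeR: Sla had 0.60 (SE 0.122, 95% interval 0.33 to 0.86, adjusted p = 0.0722) and Efhd2 0.25 (SE 0.0564, interval 0.12 to 0.37, adjusted p = 0.107). DESeq2 passed both, with adjusted p of 0.00147 and 0.00937. Sla and Efhd2 were also the 2 of 6 with positive slopes at an unadjusted p under 0.05, against 4.71% of all genes. Etv6 at 0.08, Plxdc2 at -0.04, Gcnt1 at -0.01 and Plau at -0.42 had intervals that included 0. Genes of each score leaned below 0 on the other score. On the microglial score 10 of 10 neocortex markers had slopes below 0, beside 50.4% of all genes. On the neocortex score 20 of 21 microglial identity genes had slopes below 0, beside 50.2%. The relations of Sla and Efhd2 with Csf1r and with the neocortex score are therefore not independent of each other.

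Of the neocortex markers, 0 passed in either contrast (edgeR), with 6 in Aducanumab and 1 in ACLP-NT at an unadjusted p under 0.05. Lower than saline were 9 of 10 in Aducanumab (median log2 fold change -0.47) and 10 of 10 in ACLP-NT (median -0.29), beside 48.7% and 50.6% of all genes. Their sum over saline libraries was 176 to 294 CPM, over Aducanumab ones 144 to 196 and over ACLP-NT ones 158 to 223, and none was at 0 in all libraries. At equal neocortex score, Sla was -0.26 (SE 0.111) in Aducanumab and -0.37 (SE 0.0934) in ACLP-NT, in place of -0.60 and -0.59. Efhd2 was -0.15 (SE 0.0526) and -0.08 (SE 0.0439), in place of -0.30 and -0.17, whereas Plau was -0.65 and -0.86. With both scores in the fit, values ran from -0.06 (Gcnt1 in Aducanumab, SE 0.183) to -0.41 (Plau in ACLP-NT, SE 0.155). Etv6 had -0.18 (SE 0.112) and -0.18 (SE 0.104) there, and Plxdc2 in Aducanumab -0.10 (SE 0.101). The genes were chosen on these contrasts, so nothing is read from the sign of these values. The part of bordering tissue in these differences was not tested.

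**Figure D4:**
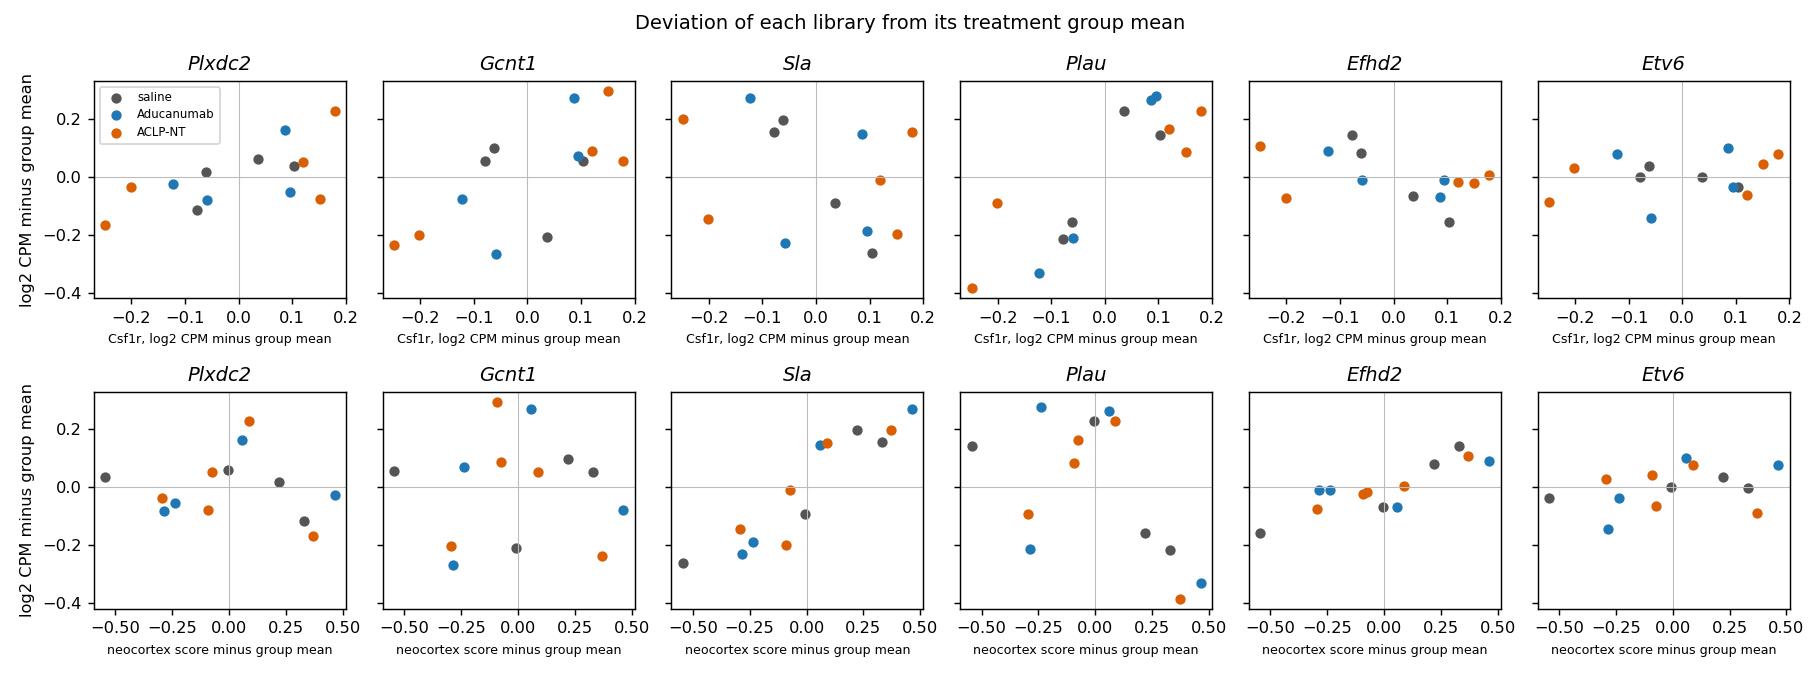
Deviation of each of the 13 libraries from its group mean in log2 CPM of each gene (vertical axis) against that of Csf1r (upper plots, log2 CPM) and of the neocortex score (lower plots). Plau rises with Csf1r (r = 0.855) and Sla and Efhd2 with the neocortex score (r = 0.92 and 0.855).

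**Figure D5:**
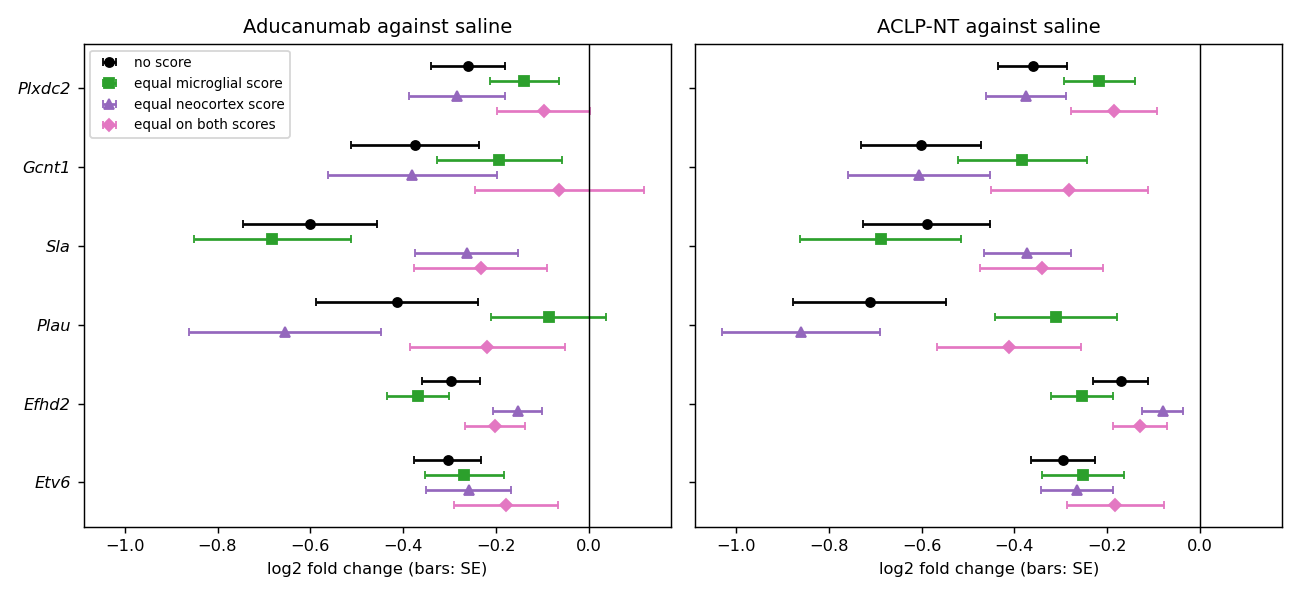
log2 fold change against saline (horizontal axis, bars for the SE) of each gene with no score in the fit, at equal microglial score, at equal neocortex score and at equal values of both. Plau lies nearest 0 at equal microglial score in both contrasts (-0.09 and -0.31), and Efhd2 at equal neocortex score (-0.15 and -0.08).

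The 6 genes did not vary as 1 block within groups. Of 15 pairs, 10 had a positive r and none passed after adjustment over the pairs. The largest were Sla with Efhd2 at 0.719 (rho 0.72), Plau with Efhd2 at -0.687 (rho -0.615) and Plxdc2 with Plau at 0.686 (rho 0.67), each with an exact permutation p adjusted to 0.0867 for r. Without the 2 libraries farthest in the first gene these values were 0.515, -0.517 and 0.61.

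The genes most like each of the 6 within groups, among 11824 genes with a mean of at least 5 CPM, are given as description. Plau was closest to Rnase4 (r = 0.963), Csf1 (0.958) and Capg (0.955), and Csf1r ranked 71 on its list. Plxdc2 was closest to the lysosomal membrane protein genes Lamp1 (0.933) and Scarb2 (0.918) and to Fxr1 (0.925), with Csf1r at rank 651. Gcnt1 was closest to Nsun3 (0.897), Zfp958 (0.887) and Mob2 (0.866), with Csf1r at rank 126. Sla was closest to Cobl (0.944), Dusp26 (0.923) and Pcgf5 (0.919), and Efhd2 to Tm9sf4 (0.960), Arhgap32 (0.958) and Cyp46a1 (0.953), the neuronal enzyme that hydroxylates cholesterol. Csf1r ranked 9613 and 10599 for these. Etv6 was closest to Nr2c1 (0.893), Zfp729a (0.885) and Plekha7 (0.881), with Csf1r at rank 3386. These are the extremes of 11824 values each, over 13 libraries.

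Around Plau, the plasminogen activation system was measured through 17 other genes. Of these, 8 were lower than saline in Aducanumab and 14 in ACLP-NT (medians 0.016 and -0.15), beside 48.7% and 50.6% of all genes, and 0 passed in either. Plaur, the receptor that holds urokinase at the cell surface, was low, at 2.22 ± 0.471 CPM in saline, 1.67 ± 0.610 in Aducanumab and 1.74 ± 0.647 in ACLP-NT. Plat, the tissue-type activator, was higher than saline in Aducanumab, at 49.7 ± 4.44 against 42.4 ± 1.96 CPM, and 43.2 ± 1.83 in ACLP-NT. The difference for Plat in Aducanumab, log2 0.23 (SE 0.0623), did not pass (edgeR adjusted p = 0.910).

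Around Etv6, 20 other ETS family genes were measured, with medians of -0.07 and -0.03 against saline and 13 and 11 lower. Spi1 stood at 9.94 ± 0.980 CPM in saline, 8.74 ± 1.22 in Aducanumab and 8.15 ± 1.64 in ACLP-NT. It was the 1 gene of the list to pass for a slope on the microglial score, which contains it (1.2, edgeR adjusted p = 0.0202). Ets1, Fli1, Etv3 and Etv5 did not pass in any comparison, and the slope of Etv5 on the neocortex score came nearest (0.37, edgeR adjusted p = 0.0898).

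Around Sla, 23 other adaptors and kinases of immune receptor signalling were measured, 17 lower than saline in Aducanumab and 19 in ACLP-NT (medians -0.17 and -0.27), beside 48.7% and 50.6% of all genes, and 0 passed in either (2 and 8 at an unadjusted p under 0.05). Of the 23, 4 passed for a positive slope on the microglial score, beside 0.385% of all genes. They were led by Ptprc (1.71, edgeR adjusted p = 0.000213), and Fcer1g was among them (1.36, adjusted p = 0.0320). Syk, the kinase that Sla binds, had 1.11 (edgeR adjusted p = 0.0781) and Btk 1.24 (adjusted p = 0.470). On the neocortex score 22 of the 23 had slopes below 0, beside 50.2% of all genes, and 0 passed. Microglial genes in general did much the same, with 20 of 21 identity genes and 26 of 27 plaque-associated genes below 0. Sla had 0.60 on the neocortex score. The relative Sla2 was low, at 0.573 to 0.968 CPM by group mean.

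For Gcnt1, 28 other genes of core 2 and mucin-type O-glycans were measured, 13 and 15 of them lower than saline (medians 0.020 and -0.007). Gcnt2 was nearly level across groups, at 24.6 ± 2.22, 25.4 ± 1.80 and 24.4 ± 2.12 CPM, while Gcnt4 stood at 6.98 ± 0.673, 5.54 ± 1.72 and 5.58 ± 0.586. C1galt1, which makes the core that Gcnt1 branches, stood at 22.9 ± 3.43, 21.6 ± 2.19 and 21.2 ± 1.57 CPM. Selplg, a microglial surface mucin that carries such glycans, had a slope of 0.95 on the microglial score (edgeR adjusted p = 0.00243) and is itself part of that score.

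Around Efhd2, 16 other calcium-binding and actin genes had medians of 0.006 and -0.006 against saline, with 7 and 9 lower. Capg passed for the microglial score (1.43, edgeR adjusted p = 0.0168), as did Lcp1 (1.10, adjusted p = 0.0239), beside 0.385% of all genes. Coro1a had 0.015 and the relative Efhd1 0.41. Of the 16 genes, 5 had slopes below 0, as had 50.4% of all genes and Efhd2 at -0.27. Among 7 genes around Plxdc2, the relative Plxdc1 stood at log2 -0.62 (SE 0.181) and -0.59 (SE 0.170) against saline, with edgeR adjusted p of 0.938 and 0.722. Plxdc1 averaged 18.1 ± 3.84 CPM in saline, 11.8 ± 2.50 in Aducanumab and 12 ± 2.10 in ACLP-NT. Its slope was 0.61 on the neocortex score and -0.15 on the microglial one, neither of which passed. Serpinf1, which encodes PEDF, was level at 11.3 ± 3.30, 11.5 ± 3.04 and 11.3 ± 2.47 CPM.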

How the data were processed

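Each of the 13 hippocampus libraries has FPKM and raw counts per gene in 1 table. Per the file headers, the deposited FPKM are the authors' values per gene length and library total, and the deposited counts are the authors' whole numbers without normalization. Per the submitters' processing notes, cutadapt 1.9, HISAT2 2.0.4, StringTie 1.3.4d and edgeR (no version) were used; the sources used here name no counter, annotation, strand setting or genome build. The 6 genes and all gene lists were chosen with earlier results of these data known.

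Counts were filtered (filterByExpr, 22065 genes), scaled by TMM and fitted with edgeR 4.0.16 (quasi-likelihood, 3 groups in 1 fit, two-sided, Benjamini-Hochberg, threshold 0.05; R 4.3.3). The SE is the absolute log2 fold change over the square root of F. Scores are mean centred log2 CPM (prior count 2) over a list. Of 22 microglial identity genes 21 were tested. Slopes were fitted with group and score as terms. Correlations used group-centred log2 CPM with exact two-sided permutation within groups (69120 permutations, smallest possible p 1.45e-05, numpy 2.4.6). Named genes were the 6 genes, Csf1r, fixed genes of 6 pathway lists and the smallest-p gene of each, and the 3 genes most correlated with each of the 6. Only some of those are printed. Alternatives were DESeq2 1.42.0, limma 3.58.1 on log2(FPKM + 1) and log2(FPKM + 0.1), other filters and scalings, other scores, and each library left out. Libraries of 1 group always differed by more than sampling noise, with a smallest chi-square of 14.0 per degree of freedom. All per-sample columns were mapped to a sample. The fits were tested on simulated data.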

Additional observations from a re-analysis of the deposited data

Results flagged for a closer look

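Of 21 sets of values (the 6 genes and Csf1r in each of 3 groups), 1 had a library set apart from the others. Gcnt1 was at 9.76 CPM in saline 38, below the other saline libraries at 11.7 to 12.1 CPM. Chance alone gives such a gap in about 1 in 20 groups.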

How the results depend on the processing

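Counts of genes called moved with the tool. DESeq2 called 18 genes in Aducanumab against saline, 9 in ACLP-NT against saline, 3 in ACLP-NT against Aducanumab, 235 for the microglial slope and 378 for the neocortex slope, against 0, 0, 0, 85 and 41 in edgeR. The neocortex count was 14 with limma on log2(FPKM + 0.1), 12 with no filter and 82 with a robust fit. Leaving out 1 library gave 0 to 1 calls in each contrast (1 without saline 32 or ACLP-NT 49). It gave 45 to 86 for the microglial slope (lowest without ACLP-NT 27) and 3 to 66 for the neocortex slope (without saline 32 and Aducanumab 58). Directions turned only in values near 0. In ACLP-NT against Aducanumab, Sla ran from -0.063 to 0.107 (-0.038 without ACLP-NT 27, -0.024 without ACLP-NT 49, -0.051 without Aducanumab 24) and Etv6 from -0.037 to 0.043 (-0.007 without ACLP-NT 49, -0.004 without Aducanumab 24). Etv6 with Csf1r had r = -0.00431 without ACLP-NT 27 and up to 0.378. The neocortex slope of Gcnt1 was 0.012 with limma on log2(FPKM + 0.1) and -0.114 to 0.1 with 1 library left out, that of Plxdc2 -0.08 to 0.033. The cause was not tested. Every fold change of the 6 genes against saline kept its sign in all alternatives run. The genes were chosen on these contrasts in the same libraries, so nothing is read from the kept signs. On log2(FPKM + 1), which shrinks genes with low FPKM, Sla read -0.277 and -0.273, Etv6 -0.217 and -0.211, and Gcnt1 -0.363 in ACLP-NT. No paired analysis was possible because the groups share no replicate number.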
